A study of Homo sapiens with 6 samples.

Results

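The baseline transcriptome of TPC1 cells was described from the 3 libraries of cells carrying a vector, chosen by their labels from the 6 samples of the series. The other 3 samples were TPC1 cells overexpressing the transcription factor TFCP2L1, for which the vector cells are the control, and they entered no comparison here. TPC1 is an established line of papillary thyroid carcinoma, and the labels give the vector cells the genotype WT and name no drug, dose or time. Total RNA was taken up in TRIzol and made into RNA-seq libraries with a VAHTS Universal V6 kit. The labels do not say that the replicates were separate cultures, so the spread given below is that between libraries and may be technical. TFCP2L1 itself had 0, 0 and 1 reads in the vector libraries.

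Follicular cells of the thyroid take up iodide, couple it to thyroglobulin and release thyroid hormone, under a small set of transcription factors that includes PAX8, NKX2-1, FOXE1 and HHEX. Papillary carcinoma arises from these cells, usually through a single activating change in the pathway from receptor tyrosine kinases through RAS and RAF to ERK. TPC1 carries a fusion that joins the kinase end of RET to the start of CCDC6. Lines of this cancer grown in culture are known for losing much of the hormone-making program, and papillary tumours for high fibronectin and other secreted and adhesive proteins.

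Levels are given as FPKM, the reads of a gene scaled by its length and by the reads of the library, and compared between genes on this scale only. CPM, reads scaled by the library total and not by length, is used for shares of a library and for the spread between libraries. A gene is counted as expressed here at an FPKM of at least 1 in all 3 libraries, and below 0.1 means a mean FPKM under 0.1. By this rule 50.5% of the genes in the table were expressed, and 66.8% of its protein-coding genes. Counts of list members are to be read against these shares. Values after ± are SDs over the 3 libraries (n = 3), and 3 values in a row are those of vector replicates 1, 2 and 3.

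The libraries held 37928516 to 38249193 reads, and 18037 to 18102 of the 21173 genes in the table had a read in a given library. Replicate 2 stood apart from the other libraries. All 13 mitochondrially encoded genes were highest there, by a median of 0.46 on the log2 scale, and took 6.72% of its reads against 5.14% and 5.13% in replicates 1 and 3. Of 77 expressed ribosomal protein genes, 44 (57.1%) were lowest in replicate 2, against 40.6% of all expressed genes, with a median log2 difference of -0.10 against -0.01. Its part in the values given here was checked only by leaving it out. For 60 of the 749 named genes with a position in GENCODE v29, other annotated genes overlapped more than 20% of the exon bases. No source used here says if strand was kept, so reads of overlapping genes could not be told apart and those levels are uncertain.

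The 5 genes given as markers of this line were all expressed. So were 66.8% of the protein-coding genes of the table, so passing this threshold does not by itself check the label. PAX8, the factor that drives thyroid development and thyroglobulin transcription (ENSG00000125618.16; GRCh38 chromosome 2, 113215997 to 113278950, minus strand), was at 128, 139 and 132 FPKM. FN1, which encodes fibronectin (ENSG00000115414.18; GRCh38 chromosome 2, 215360440 to 215436172, minus strand), was at 2215, 2309 and 2413 FPKM. DPP4, a cell surface peptidase that is raised in papillary cancers (ENSG00000197635.9; GRCh38 chromosome 2, 161992241 to 162074542, minus strand), was at 78.3, 72.6 and 78.4 FPKM. The order FN1, PAX8, DPP4 held in every library. C3, the central complement protein (ENSG00000125730.16; GRCh38 chromosome 19, 6677704 to 6730562, minus strand), was at 196, 202 and 196 FPKM. RET, the receptor tyrosine kinase of the fusion (ENSG00000165731.18; GRCh38 chromosome 10, 43077027 to 43130351, plus strand), was at 7.77, 7.42 and 7.49 FPKM, the lowest of the 5 in every library. The tables count whole genes, so reads from the fusion and from an intact RET could not be told apart.

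**Figure D1:**
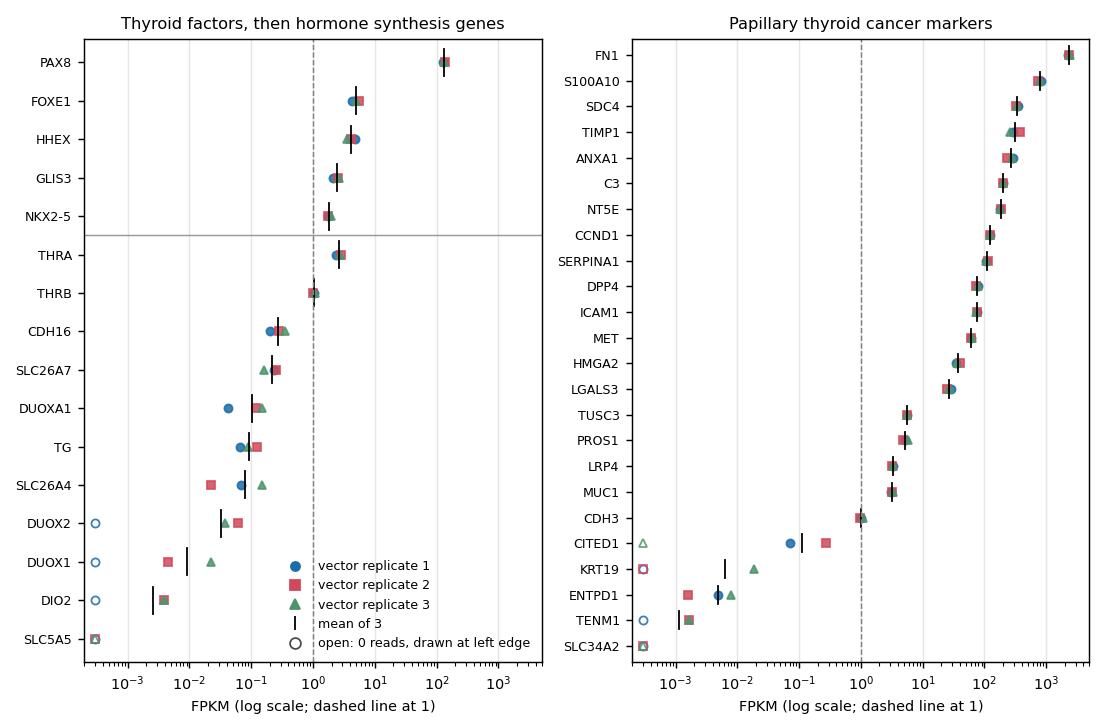
FPKM on a log axis for thyroid genes and papillary cancer markers in the 3 vector libraries, with 1 point per library, a mark at the mean, a dashed line at 1 FPKM and open symbols at the left edge for 0 reads. FN1 and PAX8 sit far above the line, while the means of TG and DUOX2 lie below 0.1.

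The thyroid transcription factors analysed were expressed, while most hormone synthesis genes analysed were not. Of the 5 analysed factors, 5 were expressed, with a median of 4.10 FPKM, against 10692 of 21173 genes (50.5%), or 66.8% of protein-coding genes, and a median of 1.24 FPKM over the table. PAX8 stood 27.1 ± 2.6 times above the second of them, FOXE1, a forkhead factor of thyroid development at 4.28, 5.56 and 5.01 FPKM. HHEX, a homeobox factor of the early gland, was at 4.76, 4.06 and 3.49 FPKM, and its libraries overlapped those of FOXE1. GLIS3, which is needed for hormone synthesis, was at 2.44 ± 0.261 FPKM and NKX2-5 at 1.81 ± 0.12 FPKM. NKX2-1, the other of the 6 factors listed, was not analysed here, so the count of 5 of 5 leaves it out.

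Among 12 genes of hormone synthesis and iodide handling, 3 were expressed, 6 were below 0.1 and the median was 0.0979 FPKM. Among the expressed genes, the nuclear hormone receptors THRA and THRB were at 2.66 ± 0.267 and 1.04 ± 0.0452 FPKM. TG, the thyroglobulin precursor of the hormone, had 29, 56 and 40 reads, or 0.0924 ± 0.0298 FPKM. SLC5A5, the sodium iodide symporter, had 0 reads in all 3 libraries, which allows up to 0.0262 CPM over the 114363589 reads of the group and covers counting error only. The peroxide-generating oxidases DUOX2 and DUOX1 had 24 and 6 reads summed over the libraries, and the deiodinase DIO2 had 2. Also low were CDH16, a cadherin of thyroid and kidney, at 0.276 ± 0.0723 FPKM, the anion transporters SLC26A7 and SLC26A4 at 0.216 ± 0.0496 and 0.0802 ± 0.0643 FPKM, and the oxidase maturation factor DUOXA1 at 0.103 ± 0.0545 FPKM. TSHR, DUOXA2, DIO1, IYD, DIO3 and ANO1 were not analysed here. In bulk RNA, fewer cells that express a gene and less RNA per cell cannot be told apart.

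The promoter of PAX8 is shown beside that of FN1, the gene with the most reads, and those of 2 thyroid or epithelial genes that were off, to let their base composition be compared. Each run gives the 250 bases before the gene start that RefSeq places on GRCh38.p14, 5′ to 3′ on the gene's strand, with CG dinucleotides in capitals. GENCODE v29 starts PAX8 and FN1 farther upstream, so the last part of their runs lies inside the genes as placed above.
PAX8: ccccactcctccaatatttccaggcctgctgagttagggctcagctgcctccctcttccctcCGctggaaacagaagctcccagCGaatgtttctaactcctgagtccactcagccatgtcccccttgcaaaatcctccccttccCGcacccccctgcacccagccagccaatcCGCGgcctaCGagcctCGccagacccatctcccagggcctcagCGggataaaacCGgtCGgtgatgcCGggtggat
FN1: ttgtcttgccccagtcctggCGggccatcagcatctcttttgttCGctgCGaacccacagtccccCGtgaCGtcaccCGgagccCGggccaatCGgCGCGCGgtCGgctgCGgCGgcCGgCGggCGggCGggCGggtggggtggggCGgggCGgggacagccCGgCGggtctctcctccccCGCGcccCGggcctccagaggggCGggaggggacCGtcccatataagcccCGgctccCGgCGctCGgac
RAB25: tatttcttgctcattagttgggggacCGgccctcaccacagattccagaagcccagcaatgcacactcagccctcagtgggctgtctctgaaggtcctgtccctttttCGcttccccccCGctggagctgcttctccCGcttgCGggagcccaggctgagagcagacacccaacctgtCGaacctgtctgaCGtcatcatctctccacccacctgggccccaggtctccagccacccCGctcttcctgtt
SLC5A5: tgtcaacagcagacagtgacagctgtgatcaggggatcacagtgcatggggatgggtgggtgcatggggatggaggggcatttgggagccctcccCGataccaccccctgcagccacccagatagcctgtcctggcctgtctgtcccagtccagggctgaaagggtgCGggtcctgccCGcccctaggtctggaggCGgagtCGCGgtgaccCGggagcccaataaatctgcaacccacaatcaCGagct
These runs lie at chr2:113278922-113279171 (minus strand), chr2:215436069-215436318 (minus strand), chr1:156060910-156061159 (plus strand) and chr19:17871695-17871944 (plus strand). FN1 holds 32 CG dinucleotides in the stretch, PAX8 11, and RAB25 and SLC5A5 8 each. RAB25, a small GTPase of epithelial cells, had 1 read over the 3 libraries. The stretch of PAX8 is closer in CG count to those of these 2 genes than to that of FN1. The 2 were picked for display and do not stand for genes that were off. By the limit given below, 54.7% of genes with a read that were not expressed and 35.2% of genes with 0 reads had CpG-rich promoters. Which start site the cells used was not measured.

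The most abundant transcripts were mitochondrial, ferritin, cytoskeletal and fibronectin transcripts. By mean FPKM, 11 of the 20 highest genes were encoded by mitochondrial DNA, led by the cytochrome oxidase subunits COX3 at 9460.2, 13051 and 9367 FPKM and COX1 at 8057, 10184 and 7987 FPKM. Both were highest in replicate 2. Of the 9 nuclear genes, the highest was FTH1, the heavy chain of the iron store ferritin, at 4557, 5991 and 4133 FPKM. FTL, the light chain, was at 2651, 3493 and 2416 FPKM, and replicate 2 was again the highest for both chains. Their ratio was 1.71 ± 0.00421, so the chains varied together between libraries. Other annotated genes overlap 62.4% of the exon bases of FTH1.

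TMSB10, a thymosin that binds actin monomers, followed at 3383, 3493 and 3118 FPKM, and its libraries overlapped those of GAPDH, the glycolytic dehydrogenase, at 3089 ± 118 FPKM. ACTB, cytoplasmic actin, was at 2779.8 ± 97 FPKM, G0S2, an inhibitor of triglyceride breakdown, at 2327 ± 88.6 FPKM, and FN1 at 2312 ± 99 FPKM. The libraries of G0S2 and FN1 overlapped, so these neighbours in the order were not separated by their spread. EEF1A1, the elongation factor that brings tRNA to the ribosome, was at 2035 ± 154 FPKM and LGALS1, the lectin galectin-1, at 1795 ± 181 FPKM. The mitochondrial, ferritin, actin and ribosomal protein genes have many near-identical copies in the genome, so their levels depend on how reads with several matches were counted, which the sources used here do not give.

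Counted as reads rather than per length, FN1 led the whole table. It took 18981, 19788 and 20678 CPM, or 1.98% ± 0.0849 of all reads, and was 17th by FPKM because its gene model spans 8571 bases. COX1 was next at 13481 ± 1925 CPM. Among the long nuclear genes that enter the 20 highest only by CPM were FLNA, the actin crosslinker filamin A at 3667 ± 172 CPM, and PKM, pyruvate kinase at 4097 ± 53.6 CPM. VIM, the mesenchymal filament vimentin at 3589.6 ± 97.4 CPM, LDHA, lactate dehydrogenase at 3239.8 ± 63.6 CPM, HSPA8, a constitutive chaperone at 3031 ± 91.9 CPM, and ACTG1 at 2813 ± 60.8 CPM also belonged to that group. The 20 genes with the most reads took 11.8% ± 0.770 of a library, 100 genes took 22.99%, and 816 genes took 50.02%.

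**Figure D2:**
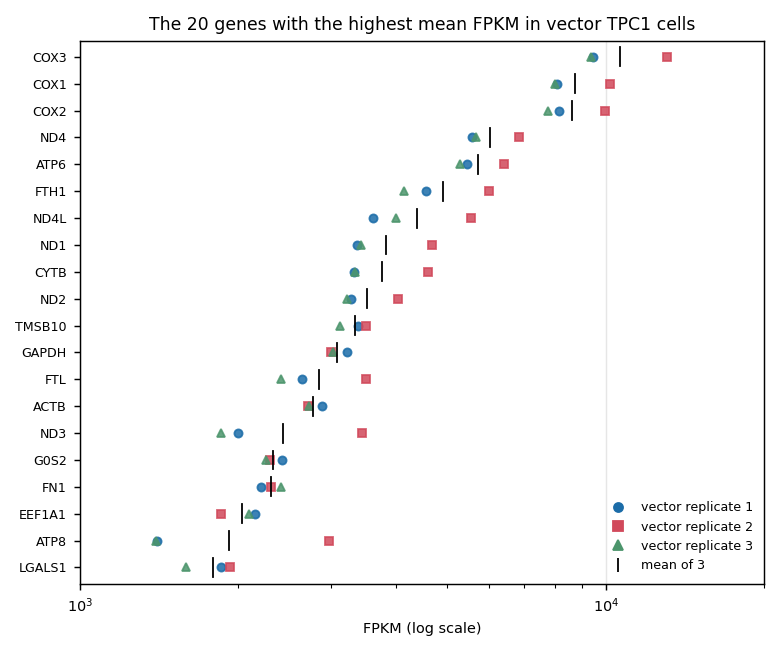
FPKM on a log axis of the 20 highest genes by mean FPKM, with 1 point per vector library and a mark at the mean. Mitochondrial genes and the 2 ferritin chains are highest in replicate 2, while FN1, GAPDH and ACTB lie close together over the libraries.

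Most known markers of papillary thyroid cancer were expressed, with a few at or near 0. Of 24 analysed markers, 18 were expressed (75%) and 4 were below 0.1, with a median of 49.3 FPKM. This share was near the 66.8% of protein-coding genes of the table, so it does not by itself set the markers apart. After FN1 the highest were S100A10, the partner of annexin A2 on the membrane, at 832, 729 and 784 FPKM, and SDC4, the heparan sulfate proteoglycan syndecan-4, at 350.1, 326 and 340.3 FPKM. TIMP1, an inhibitor of metalloproteases, was at 294, 369.8 and 257 FPKM, highest in replicate 2. ANXA1, an annexin with anti-inflammatory roles, was at 266 ± 30.9 FPKM, NT5E, the ectoenzyme CD73 that makes adenosine, at 182 ± 2.78 FPKM, and CCND1, cyclin D1, at 124 ± 1.09 FPKM. SERPINA1, alpha-1 antitrypsin, stood at 109 ± 5.36 FPKM, and MET, the receptor of hepatocyte growth factor, at 59.97, 60.7 and 63.6 FPKM. ICAM1, an adhesion molecule for leukocytes, was at 75.4 ± 2.09 FPKM, with 23.6% of its exon bases shared with other genes. LGALS3, galectin-3, used in diagnosis, was lower at 26.8 ± 2.06 FPKM.

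Several markers stood at the opposite end. KRT19, the keratin used with galectin-3 in diagnosis, had 0, 0 and 1 reads. CITED1, a transcriptional coactivator, had 4, 15 and 0 reads, and SLC34A2, a phosphate transporter, had 0 reads. TENM1, a teneurin, and ENTPD1, the ectoenzyme CD39, had 2 and 9 reads over the 3 libraries. CDH3, P-cadherin, lay at the threshold with 0.991, 0.974 and 1.09 FPKM. The lowest expressed markers, TUSC3, PROS1, LRP4 and MUC1, ran from 3.22 to 5.59 FPKM. CHI3L1, SFTPB and KLK10 were not analysed here.

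The kinase pathway from RET to ERK and its transcriptional outputs were expressed, while the fusion partner and the RET coreceptor were low. Of 28 genes of RET and MAPK signalling, 25 were expressed, against 66.8% of the protein-coding genes of the table, with a median of 22.6 FPKM. CCDC6, the coiled-coil gene whose start is fused to RET, was at 0.378, 0.676 and 0.453 FPKM. RET stood 16 ± 4.82 times above it, with a wide spread. FPKM divides reads by the length of the whole gene, and the fusion covers only part of each gene. The ratio is therefore not one of transcripts, and the level of the fusion cannot be read from either gene. GFRA1, the coreceptor that lets RET bind its ligand, was at 0.479, 0.483 and 0.384 FPKM, and the ligand gene GDNF was at 2.16, 2.27 and 2.23 FPKM. GFRA1 thus lay below the threshold in every library while the ligand lay above it.

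Adaptors downstream of RET were led by SHC1 at 98.3 ± 3.82 FPKM and GRB2 at 36 ± 1.44 FPKM. The RAS genes NRAS and HRAS were at 40.4, 38.5 and 40.4 FPKM and 23 ± 3.63 FPKM, and the kinase gene BRAF was at 2.44, 2.86 and 2.68 FPKM. The kinases MAP2K2 and MAP2K1 were at 37.5 ± 1.06 and 22.2 ± 2.72 FPKM, and their substrate MAPK3 at 28.4 ± 2.71 FPKM.

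Genes known as outputs or feedback inhibitors of ERK were expressed with 1 exception. FOSL1, an AP-1 factor, was the highest gene of the list at 201, 241 and 203 FPKM, with replicate 2 the highest. PHLDA1 was at 101, 102 and 101 FPKM, close to the same in each library. The phosphatase DUSP6 was at 27.9 ± 1.18 FPKM and the factors ETV5 and ETV4 at 24.4 ± 1.21 and 16.6 ± 0.637 FPKM. The feedback inhibitors SPRY2, SPRY4 and SPRED1 ran from 6.89 to 10.2 FPKM, while DUSP4, another ERK phosphatase, was at 0.508, 0.604 and 0.58 FPKM, below the threshold.

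A minority of the analysed epithelial genes were expressed, and vimentin was high. Of 24 analysed epithelial genes, 9 were expressed (37.5%) and 9 were below 0.1, with a median of 0.727 FPKM. Of 24 mesenchymal genes, 15 were expressed (62.5%) and 6 were below 0.1, with a median of 3.45 FPKM. The mesenchymal share was near the 66.8% of protein-coding genes of the table, and the epithelial share was below it. CDH1, the epithelial adhesion molecule E-cadherin, had 1, 0 and 0 reads, and EPCAM had 20, 1 and 1 reads, nearly all in replicate 1. The splicing factors ESRP1 and ESRP2, which set epithelial exon choice, had 2 and 32 reads over the libraries. CLDN7 and KRT17 had 0 reads, and DSP, the desmosome plaque protein, had 6. CLDN1, a claudin of tight junctions, was high instead at 173, 199 and 173 FPKM. The simple keratin KRT18 was at 117, 97.9 and 111 FPKM and its usual partner KRT8 at 14, 13.6 and 12.9 FPKM, a ratio of 8.08 ± 0.786. KRT81, a hair keratin, followed KRT18 in the list at 62.8 ± 6.58 FPKM, and TJP1, a scaffold of tight junctions, was at 16.9 ± 0.757 FPKM.

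VIM was at 1688, 1693 and 1612 FPKM, 15.4 ± 1.65 times KRT18. Other annotated genes overlap 24.4% of its exon bases. LOXL2, a lysyl oxidase that crosslinks matrix, was at 129 ± 5.2 FPKM and the tropomyosin TPM2 at 84.9 ± 10.5 FPKM. Among factors that repress epithelial genes, SNAI2 was at 29.2, 32.8 and 27.9 FPKM, 12.9 ± 2.9 times SNAI1, ZEB1 at 11.5, 12.4 and 12 FPKM and ZEB2 at 4.81, 5.79 and 5.25 FPKM. TWIST2 and TWIST1 were at 3.35 ± 0.181 and 1.98 ± 0.427 FPKM. CDH2, N-cadherin, was low at 3.66, 3.59 and 3.38 FPKM but far above CDH1. Genes typical of fibroblasts were below the threshold. COL1A1, PDGFRB and LUM were at 0.836 ± 0.0505, 0.642 ± 0.0343 and 0.475 ± 0.229 FPKM, COL1A2, COL3A1 and CDH11 had 2, 3 and 1 reads over the libraries, and FAP had 8.

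Matrix genes took 3.26% ± 0.0976 of all reads, most of it FN1. Of 43 analysed, 34 were expressed and 4 were below 0.1, with a median of 13.7 FPKM. LAMB3, the beta chain of laminin-332 of epithelial basement membranes, was at 446, 403 and 434 FPKM, while LAMA3, the alpha chain, was far lower at 4.5, 4.65 and 5.48 FPKM. SPP1, osteopontin, was at 293, 323 and 268 FPKM, followed by the collagen VI chain COL6A1 at 205 ± 9.3 FPKM and SPARC, a collagen-binding protein, at 139.8 ± 1.98 FPKM. COL6A2 was at 104 ± 2.51 FPKM, but the third chain COL6A3 was at 0.121 ± 0.0201 FPKM, below the threshold. The basement membrane collagens COL4A2 and COL4A1 were at 92.7 ± 4.34 and 24.1 ± 1.57 FPKM. COL1A1 was at 0.836 ± 0.0505 FPKM, and THBS2, a matricellular protein, had 0 reads.

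Proteases of the pericellular matrix were high. Of 39 analysed proteases and inhibitors, 35 were expressed, against 66.8% of the protein-coding genes of the table, with a median of 26.3 FPKM. PLAU, the urokinase that activates plasminogen, was at 1026, 898 and 991 FPKM, and its receptor gene PLAUR at 51, 46.2 and 48.4 FPKM, a ratio of 20 ± 0.518. Other genes overlap 31.1% of the exon bases of PLAU. The membrane metalloprotease MMP14 was at 329, 342 and 334 FPKM, and its substrate MMP2, gelatinase A, at 26.3 ± 1.41 FPKM. The lysosomal cathepsins CTSB, CTSD and CTSZ were at 465 ± 18.8, 318 ± 7.23 and 171 ± 9.38 FPKM. MMP3 and MMP10, the stromelysins, were at 0.513 ± 0.157 and 0.0895 ± 0.065 FPKM, and IGFBP5 had 8 reads.

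Among secreted transcripts, CXCL1 and CXCL8 were abundant, while other CXC chemokines ranged down to 19 reads over the libraries. Of 52 analysed cytokines and growth factors, 37 were expressed (71.2%), with a median of 3.56 FPKM. Of 17 chemokines, 11 were expressed (64.7%), with a median of 5.28 FPKM. Both shares were near the 66.8% of protein-coding genes of the table. CXCL1, which draws neutrophils, was the highest chemokine at 552, 574 and 512 FPKM. CXCL8, interleukin-8, was at 315, 328 and 299 FPKM, and the ratio of CXCL1 to CXCL8 was 1.74 ± 0.0213, stable over the libraries. CXCL2, a close relative, was at 68.3, 65.4 and 67.4 FPKM. CCL5, which draws T cells, was at 64, 91.7 and 65.9 FPKM, highest in replicate 2. CCL3L3 and CCL3, near-identical copies of a chemokine of macrophages, were at 210.2, 278 and 185 FPKM and 27 ± 4.18 FPKM, and how reads were split between these copies is uncertain. CCL20, CXCL3 and CCL2 followed at 10.6 ± 2.92, 6.55 ± 1.92 and 5.28 ± 1.06 FPKM. CXCL10, induced by interferon gamma, was low at 1.26, 1.67 and 1.07 FPKM, and CXCL5 had 19 reads. CXCL12, CXCL9, CXCL6, CXCL14, CCL7, CCL8 and CCL22 were not analysed here.

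Promoters of several CXC chemokines shared letters of the kind that the inflammatory factor NF-kB binds. In promoter windows of 300 bases (250 before and 50 after the RefSeq gene start), the letters GGANTTTCC, searched on both strands, were found in 7 of 10 chemokine promoters and in 1 of 24 cytokine and growth factor promoters, that of IL6, against 1.57% of all 8745 promoters. Only 10 of the 17 analysed chemokines and 24 of the 52 cytokines and growth factors had a single RefSeq promoter entry, so these shares do not cover the lists. The letters were found in 5 of the 7 expressed chemokines that could be searched, of 11 expressed. They were also found in CXCL11 and CXCL5, which were not expressed. Paralogs with nearly the same sequence count here as separate promoters, and the difference in shares was not tested. The 6 windows of expressed genes are shown for the shared letters, 5′ to 3′ on the gene's strand, from RefSeq on GRCh38.p14, with the matched letters in capitals. In CXCL10 the match is on the opposite strand.
CXCL1: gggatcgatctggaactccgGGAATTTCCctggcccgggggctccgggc
CXCL2: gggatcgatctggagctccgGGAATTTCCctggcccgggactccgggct
CXCL3: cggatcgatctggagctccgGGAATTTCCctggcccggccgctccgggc
CXCL8: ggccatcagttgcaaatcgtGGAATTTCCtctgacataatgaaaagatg
IL6: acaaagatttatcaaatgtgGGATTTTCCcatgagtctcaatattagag
CXCL10: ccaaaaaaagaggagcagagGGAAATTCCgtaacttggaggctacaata
They lie at chr4:73869295-73869343, chr4:74099244-74099292, chr4:74038739-74038787, chr4:73740458-73740506, chr7:22727108-22727156 and chr4:76023645-76023693. The windows of CXCL1, CXCL2 and CXCL3, which are paralogs, are nearly the same in sequence, but the genes stood at 546, 67 and 6.55 FPKM. A match is a description of the letters and does not show that a factor bound there. Of the NF-kB genes, NFKB2, RELA, RELB and NFKB1 ran from 23.2 to 50.3 FPKM, and the inhibitor NFKBIA, itself an NF-kB target, was at 84.4 ± 4.87 FPKM.

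Among cytokines and growth factors, MIF, a macrophage inhibitory factor, was the highest at 559, 809 and 508 FPKM, with replicate 2 the highest and 61.9% of its exon bases shared with other genes. VEGFA, the main angiogenic factor, was at 111, 115 and 112 FPKM. IL6 was at 95, 124 and 90.2 FPKM, also highest in replicate 2, and IL24, of the interleukin-10 family, at 97.9, 90.4 and 95.1 FPKM. CCN1, a matricellular protein, was at 105 ± 2.21 FPKM and GDF15, a stress-induced hormone, at 54.4 ± 9.28 FPKM. The colony-stimulating factors CSF2, CSF1 and CSF3 were at 43.5 ± 3.17, 11.4 ± 0.913 and 10.9 ± 0.791 FPKM. IL1B, IL1A and TNF, the classic first signals of inflammation, were low at 2.89 ± 0.174, 1.72 ± 0.278 and 1.61 ± 0.419 FPKM. IL1RN, the interleukin-1 antagonist, had 0 reads, IL18 had 2 and BMP2 had 11. HGF, the ligand of MET, and IGF1 were not analysed here.

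**Figure D3:**
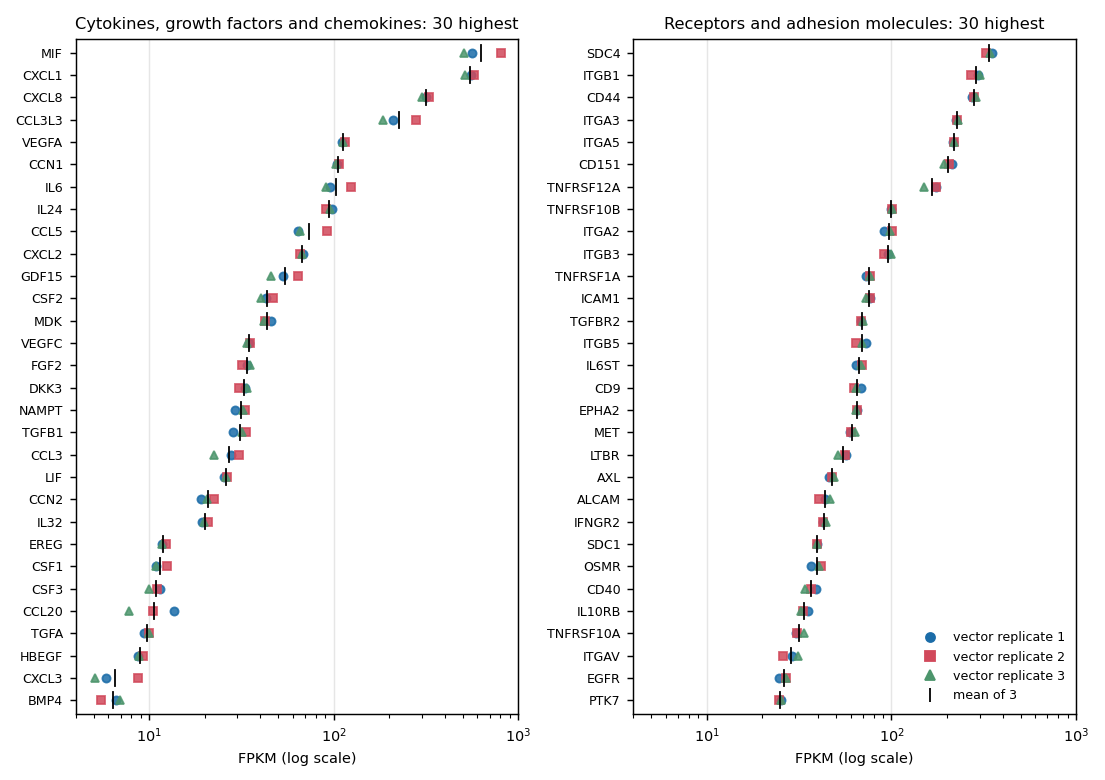
FPKM on a log axis of the 30 highest cytokines, growth factors and chemokines (left) and the 30 highest receptors and adhesion molecules (right), with 1 point per vector library and a mark at the mean. MIF, CXCL1 and CXCL8 lead the ligands and SDC4, ITGB1 and CD44 the receptors; replicate 2 is highest for MIF, IL6 and CCL5, while the libraries of most receptors nearly coincide.

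Receptor tyrosine kinases were led by EPHA2, MET and AXL. Of 35 analysed, 16 were expressed (45.7%) and 10 were below 0.1, with a median of 0.956 FPKM, against 50.5% and 1.24 FPKM for all genes of the table and 66.8% expressed for its protein-coding genes. EPHA2, an ephrin receptor, was at 65.1, 65.2 and 64.2 FPKM, above MET in every library. AXL, a receptor of the vitamin K-dependent ligand GAS6, was at 46.1, 47.8 and 49.1 FPKM, and EGFR at 24.6, 27 and 27 FPKM. PTK7 and RYK, Wnt-linked receptors with inactive kinases, were at 25 ± 0.408 and 19.2 ± 0.674 FPKM, and FGFR1 at 13.7 ± 0.603 FPKM. RET at 7.56 ± 0.184 FPKM overlapped ERBB2 at 7.74 ± 0.0853 FPKM. ERBB3, NTRK2, PDGFRA and the vascular receptors KDR, FLT4 and TEK were below 0.1, with 25, 7, 14, 24, 2 and 10 reads over the libraries. KIT, FLT1, ALK and ROS1 were not analysed here.

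EGFR was expressed together with 4 of its ligands. The ligand genes EREG, TGFA, HBEGF and AREG were at 11.9 ± 0.342, 9.79 ± 0.376, 8.94 ± 0.292 and 4.14 ± 0.392 FPKM, all below EGFR, while BTC and EGF were at 0.825 ± 0.0757 and 0.185 ± 0.0748 FPKM. FGF2 was at 33.7 ± 1.71 FPKM, above its receptor FGFR1 in every library. VEGFA and VEGFC at 113 ± 1.65 and 34.6 ± 0.699 FPKM had receptor genes KDR and FLT4 below 0.1.

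Of 42 analysed receptors of cytokines, 36 were expressed (85.7%), against 66.8% of the protein-coding genes of the table, with a median of 9.52 FPKM. TNFRSF12A, the receptor of TWEAK, was the highest at 174, 174 and 149 FPKM. TNFRSF10B, a death receptor of TRAIL, was at 99.1, 100.1 and 100.2 FPKM, and TNFRSF1A, the main TNF receptor, at 73.1, 76.9 and 76.9 FPKM. TGFBR2 was at 69 ± 0.795 FPKM and its partner TGFBR1 at 6.91 ± 0.714 FPKM. IL6ST, the signalling chain gp130 shared by the interleukin-6 family, was at 64.1, 69 and 68 FPKM, 21.5 ± 1.1 times IL6R, the binding chain, at 2.82, 3.28 and 3.28 FPKM. OSMR, a partner of gp130 for oncostatin M, was at 39.6 ± 2.44 FPKM and LIFR at 1.24 ± 0.058 FPKM beside its ligand LIF at 26 ± 0.406 FPKM. IL1R1 was at 16.8 ± 0.681 FPKM. Among receptors typical of leukocytes, IL7R was expressed at 12.3 ± 0.469 FPKM and IL15RA and IL18R1 at 1.79 ± 0.535 and 1.57 ± 0.129 FPKM, whereas IL2RG, CSF2RA, IL1R2 and IL1RL1 were below 0.1, with 16, 28, 39 and 4 reads over the libraries. CSF2RA, a receptor chain of CSF2, is a pseudoautosomal gene that the annotation carries in duplicate, so its level is uncertain, and CSF2RB was not analysed here.

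Of 34 analysed G protein-coupled receptors, 21 were expressed (61.8%), with a median of 2.74 FPKM, against 66.8% of the protein-coding genes of the table. ADGRE5, the adhesion receptor CD97, which is known from thyroid carcinoma, was the highest at 43.6, 44.1 and 43.9 FPKM. FZD6, a Wnt receptor, was at 31.5, 30.7 and 30.7 FPKM and LGR4, an R-spondin receptor, at 21.1, 22.8 and 21 FPKM. GPRC5A, ADGRG1 and F2RL1, a protease-activated receptor, were at 10.02 ± 0.476, 9.6 ± 0.896 and 9.59 ± 0.53 FPKM with overlapping libraries. CCR7, ADORA2A, BDKRB1 and BDKRB2 were below 0.1. CXCR4, CXCR2, EDNRB and AVPR1A were not analysed here.

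Several adhesion receptors were abundant. Of 29 analysed, 20 were expressed (69.0%), near the 66.8% of protein-coding genes of the table, with a median of 23.2 FPKM. After SDC4 came ITGB1, the beta chain of many integrins, at 293, 268 and 300.1 FPKM, and CD44, the hyaluronan receptor, at 271, 282 and 288 FPKM. ITGA3, which pairs with ITGB1 to bind laminin-332, was at 225, 228 and 229.8 FPKM, 9.81 ± 0.228 times ITGA6. ITGA5, which pairs with ITGB1 to bind fibronectin, was at 216, 218 and 219 FPKM, 7.63 ± 0.704 times ITGAV, and the tetraspanin CD151 at 203 ± 10.9 FPKM. ITGB4, the partner of ITGA6 in hemidesmosomes, had 15 reads, and ITGB6, VCAM1 and L1CAM had 24, 1 and 1.

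**Figure D4:**
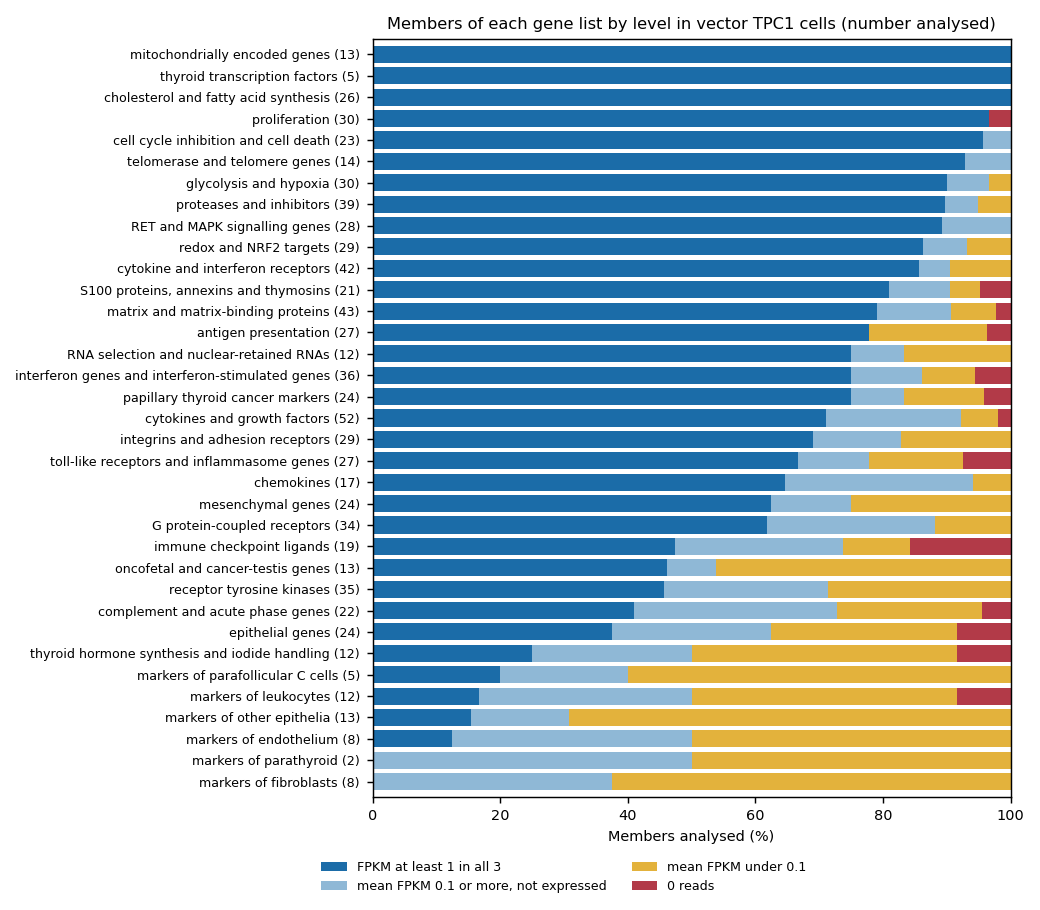
Percent of the analysed members of each gene list, with their number in brackets, that were expressed, at a mean of 0.1 FPKM or more but not expressed, under 0.1 FPKM, or at 0 reads, as stacked bars. Lipid synthesis and thyroid factor lists reach 100% expressed, and markers of fibroblasts, endothelium and leukocytes stand at the low end.

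Most genes of antigen presentation were expressed. Of 27 analysed, 21 were expressed (77.8%, against 66.8% of protein-coding genes of the table) and 6 were below 0.1, with a median of 16.2 FPKM. The 6 were HLA-G and CD1D, which are class I or alike, RAET1L, a ligand of the receptor NKG2D, and the 3 class II genes analysed, HLA-DRA, CD74 and CIITA. B2M, the light chain of class I, was at 817, 789.5 and 785 FPKM, and CALR, a chaperone of folding class I chains, at 695 ± 13.2 FPKM. The heavy chain genes HLA-B and HLA-C were at 193 ± 25.5 and 139.7 ± 7.66 FPKM. Heavy chain genes are polymorphic and alike, so the split of reads between them is uncertain. The peptide transporter genes TAP1 and TAP2 were at 17.4 ± 0.428 and 16.2 ± 0.788 FPKM and the class I activator NLRC5 at 3.72 ± 0.202 FPKM. HLA-DRA had 0 reads, and CD74 and CIITA, the invariant chain and activator of class II, had 4 and 11. The class II genes HLA-DRB1, HLA-DPA1, HLA-DPB1, HLA-DQA1 and HLA-DQB1 were not analysed here.

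Checkpoint ligands ranged from high to 0 reads. Of 19 analysed, 9 were expressed (47.4%, against 66.8% of protein-coding genes of the table), 5 lay between and 5 were below 0.1. NT5E led at 182 ± 2.78 FPKM, followed by TNFSF9, the 4-1BB ligand, at 65.9, 66.3 and 59 FPKM, and CD276, B7-H3, at 55.5, 57 and 53.9 FPKM. NECTIN2 and PVR, ligands of TIGIT, were at 51.6 ± 3.21 and 36 ± 0.595 FPKM. CD274, which encodes PD-L1, was lower at 3.14, 2.72 and 2.99 FPKM, and PDCD1LG2, PD-L2, stood above it in every library at 5.93, 6.37 and 5.22 FPKM. IDO1, FGL1 and LGALS9 had 0 reads, and VTCN1 had 11. NT5E makes adenosine from the product of ENTPD1, which was near 0 as given above.

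Some interferon-stimulated genes were high in these control cells while others were nearly off. The list of 36 analysed also held interferon genes and the sensors named below. Of these 36, 27 were expressed (75%) and 5 were below 0.1, with a median of 9.997 FPKM. Among protein-coding genes of the table the share expressed was 66.8%. ISG15, a ubiquitin-like protein, was at 438, 435 and 384 FPKM, IFIT3, which joins IFIT1 on viral RNA, at 398, 342 and 404 FPKM, and IFI44 at 250.5, 228 and 255 FPKM. IFIT3 stood 4.01 ± 0.0928 times above its partner IFIT1, at 95.2 ± 9.3 FPKM. IFITM3, a membrane protein that blocks virus entry, was at 348, 456 and 315 FPKM, highest in replicate 2, and its exons overlap other genes over 21.3% of their bases. In contrast, MX1, an antiviral GTPase, was at 0.488, 0.475 and 0.435 FPKM, BST2 at 0.411 ± 0.0657 FPKM, MX2 at 0.045 ± 0.0376 FPKM, and XAF1 had 0 reads. The interferon genes IFNB1 and IFNL1 had 5 and 7 reads and IFNL2 had 0, while IFNE was at 0.847 ± 0.219 FPKM. The sensors DDX58, which encodes RIG-I, and IFIH1 were at 85.6 ± 2.74 and 21 ± 0.387 FPKM, and STING1 and CGAS at 27.7 ± 0.928 and 11 ± 0.875 FPKM.

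Of 27 analysed toll-like receptor and inflammasome genes, 18 were expressed (66.7%), with a median of 4.0 FPKM. The share was close to the 66.8% of protein-coding genes of the table. IRAK1, a kinase below the receptors, was the highest at 115, 107 and 112 FPKM. TLR6, TLR4 and TLR3 were expressed at 4.0 ± 0.212, 2.25 ± 0.047 and 2.1 ± 0.396 FPKM, whereas TLR2, the partner of TLR6, had 1 read. NLRP3, an inflammasome sensor, was at 12.4, 11.5 and 14.1 FPKM, but CASP1, the caspase it activates, was at 0.60, 0.378 and 0.505 FPKM, below the threshold, and AIM2 and NLRC4 had 0 reads. PYCARD, TLR7, TLR8 and NOD2 were not analysed here.

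Of 22 analysed complement and acute phase genes, 9 were expressed and 6 were below 0.1, with a median of 0.290 FPKM. The share expressed was 66.8% over the protein-coding genes of the table. CLU, the complement inhibitor clusterin, was at 209, 204 and 201 FPKM and overlapped C3. The membrane regulators CD46, CD59 and CD55 were at 118 ± 3.56, 34.6 ± 2.1 and 25.4 ± 1.68 FPKM. CFB, which forms the convertase with C3, was at 0.181, 0.116 and 0.074 FPKM. C1R and C1S of the classical pathway were at 0.309 ± 0.128 and 0.272 ± 0.181 FPKM, C2 had 24 reads and LBP had 0.

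Nearly all proliferation genes were expressed, 29 of 30, against 66.8% of the protein-coding genes of the table, with a median of 35.6 FPKM. CCND1 was the highest at 123, 125 and 125 FPKM, followed by the mitotic cyclin CCNB1 at 90.9 ± 6.92 FPKM, PCNA, the replication clamp, at 87.5 ± 6.35 FPKM, and CDK4 at 85 ± 7.93 FPKM. MKI67, the Ki-67 antigen, was at 39.1, 43.4 and 45.3 FPKM. CCND2, cyclin D2, was the exception, with 0 reads. Of 23 analysed genes of cell cycle inhibition and cell death, 22 were expressed, against the same 66.8%. PMAIP1, a BH3-only killer, was at 132, 122 and 129.7 FPKM, and CDKN1A, the inhibitor p21, at 95.9, 97.5 and 94.8 FPKM. CDKN2A, the p16 and ARF locus, was at 24.2, 28.2 and 22.6 FPKM, and MDM2, a ubiquitin ligase, at 25.4 ± 1.44 FPKM. CDKN1C was at 0.622 ± 0.208 FPKM, below the threshold.

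Genes of glycolysis, which turns glucose into pyruvate and lactate, were among the most abundant. Of 30 glycolysis and hypoxia genes, 27 were expressed, against 66.8% of the protein-coding genes of the table. Their median was 74.01 FPKM, and the 30 together took 2.30% ± 0.0762 of reads. After GAPDH came LDHA at 1317, 1267 and 1302 FPKM, PKM at 1237, 1221 and 1205 FPKM and ENO1, enolase, at 920.4, 783 and 879.6 FPKM. LDHA stood 3.73 ± 0.632 times above LDHB, which was lowest in replicate 2 at 397, 284 and 382 FPKM. ENO1 stood 11.4 ± 0.647 times above ENO2, the neuronal enolase, at 75.6 ± 2.09 FPKM. ALDOA, the muscle aldolase, had only 4.1, 9.11 and 3.4 FPKM, and other genes overlap 53.5% of its exon bases, so its level is uncertain. Genes known to be induced by low oxygen stood at both ends, with BNIP3, NDRG1 and the glucose transporter SLC2A1 at 159.5 ± 7.15, 138 ± 8.05 and 72.4 ± 1.77 FPKM, CA9 at 0.537 ± 0.0518 FPKM and EGLN3 at 1 read.

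Redox genes included some of the highest nuclear transcripts. Of 29 analysed, 25 were expressed, against 66.8% of the protein-coding genes of the table, with a median of 70.5 FPKM. After the ferritins came AKR1B1, an aldose reductase, at 1076, 924 and 971 FPKM, PRDX1, a peroxiredoxin, at 499 ± 24 FPKM, TXN, thioredoxin, at 443 ± 26.2 FPKM, and HMOX1, heme oxygenase, at 326, 342 and 314 FPKM. Of other aldo-keto reductases that NRF2 is known to induce, AKR1C3 was expressed at 16.5 ± 1.86 FPKM, while AKR1C1 and AKR1C2 had 70 and 6 reads and AKR1B10 was at 0.527 ± 0.102 FPKM. SLC7A11, the cystine transporter, was at 1.57, 1.65 and 1.62 FPKM.

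Markers of other thyroid cell types and of other tissues were mostly not expressed, whereas 66.8% of the protein-coding genes of the table were. Of 8 fibroblast markers 0 were expressed, and their summed level ran from 1.82 to 2.22 FPKM over the libraries. In the leukocyte list 2 of 12 were expressed, with a summed level of 40.04 to 46.9 FPKM, nearly all from CD68, a lysosomal protein of macrophages at 39.3, 43.6 and 37.1 FPKM, of whose exon bases 85.8% overlap other genes. PTPRC, the defining leukocyte antigen CD45, had 7, 1 and 0 reads, and CD163 had 0. ITGAX, an integrin of dendritic cells, was at 1.49 ± 0.37 FPKM. Of 8 endothelial markers 1 was expressed, ROBO4 at 4.91, 6.42 and 4.73 FPKM, while PECAM1 and VWF had 91 and 6 reads. In the C cell list ENO2 alone was expressed, and CHGB had 7 reads. Among 13 markers of other epithelia, 2 were expressed, among them the kidney factor PAX2, a relative of PAX8, at 1.66, 1.52 and 1.71 FPKM. GATA3, a factor of several epithelia and the parathyroid, lay at the threshold with 0.937, 1.32 and 1.2 FPKM.

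Over the whole table, 10692 genes (50.5%) were expressed, 3902 (18.4%) lay between, and 6579 (31.1%) were below 0.1, of which 1174 had 0 reads in the vector libraries. The table was deposited for all 6 samples, and no source used here gives the rule by which genes entered it. Genes absent from it were not counted, so these numbers and shares hold for the genes of this table only. Protein-coding genes, by RefSeq biotype, took 98.7% of reads and were expressed for 10123 of 15143 (66.8%), while of 4865 long noncoding RNA genes 396 (8.14%) were expressed, with 0.765% of reads. A mean of at least 1000 FPKM was reached by 40 genes, and of at least 100 by 504. Just above 1 FPKM by mean stood DHODH at 1.09, 0.964 and 0.946 FPKM and CAPN3 at 1.08, 1.16 and 0.758 FPKM, and just below stood HARBI1 at 1.03, 0.967 and 1.0 FPKM and SLC17A3 at 0.565, 0.943 and 1.48 FPKM. None of these 4 passed 1 FPKM in every library.

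Expressed genes had promoters richer in CG. Among 8745 protein-coding genes with a single RefSeq promoter entry, a promoter was counted as CpG-rich when its 300 bases held at least 0.6 of the CG dinucleotides expected from its C and G content. This held for 90.9% of 5924 expressed genes, 54.7% of 2534 genes with a read that were not expressed, and 35.2% of 287 genes with 0 reads, against 78.6% of all. The median number of CG dinucleotides was 28, 17 and 8 in these classes. The letters TATAAA, searched on both strands, stood in 4.64%, 11.6% and 18.1% of the same classes and in 7.10% of all promoters. Of the promoters of the 100 highest genes by FPKM, 89% were CpG-rich and 18% held TATAAA. FN1 is an example of the CpG-rich class, whereas the promoter of PAX8 falls below that limit. Its observed to expected ratio was 0.483 over the 300 bases, of which the first 250 are printed above. Genes share promoters, families and base composition, so these shares are a description of the table and carry no test.

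**Figure D5:**
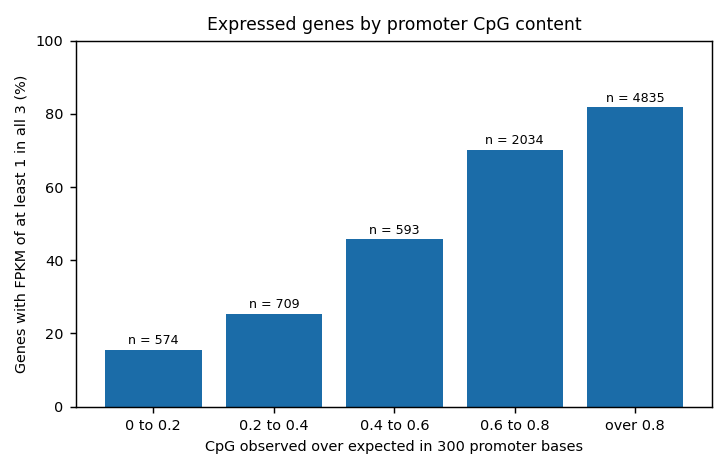
Percent of genes with an FPKM of at least 1 in all 3 vector libraries, by the ratio of observed to expected CG dinucleotides in 300 promoter bases, with the number of promoters above each bar. The share rises over the 5 bins from 15.5% to 81.8%.

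The 3 libraries were close for most genes. Among 9408 genes with a mean of at least 10 CPM, the median coefficient of variation of CPM was 5.78%, 7782 genes (82.7%) were under 10%, and 15 were over 30%. The biological coefficient of variation by edgeR was 8.51% over 13669 genes and 6.53% without replicate 2. VAMP7, a vesicle SNARE, varied most, with 2.4, 1.93 and 27.2 CPM, high in replicate 3 alone. CD99, a surface glycoprotein, was at 73.6, 29.5 and 35.9 CPM, high in replicate 1. Both are pseudoautosomal genes that the annotation carries in duplicate, and no source used here says how reads with several matches were counted. ALDOA at 8.83, 19.6 and 7.31 CPM, LUC7L2, a splicing factor, at 9.36, 21.9 and 9.58 CPM, and RAB5IF at 13.2, 24.4 and 12 CPM were highest in replicate 2, and other genes overlap 53.5%, 23.7% and 50.5% of their exon bases. The mitochondrial genes ND6 and ATP8 had coefficients of 52.8% and 47.2%, again highest in replicate 2. TRIM74 and the uncharacterised genes LOC107987206 and LOC105378179 completed the 10 most variable, with coefficients of 44.2%, 48.3% and 48%. At the other end STRADB, NDC1, CCM2, DHX33 and ERO1B varied by 0.0756% to 0.189%.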

How the data were processed

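RNA-seq of 3 vector libraries of TPC1 cells was described; no groups were compared and no test was run. The authors deposited raw read counts and FPKM values for 21173 genes, as the file headers name them. The submitters' processing notes name fastp, HISAT2, HTSeq and the build GRCh38.p13, without versions; the annotation, strand setting and handling of reads with several matches are not given in the sources used here. Each FPKM value equalled the count over gene length and library total, within 0.000115%, so both tables hold the same measurement.

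CPM was computed from the counts, and means and SDs over the 3 libraries (Python 3.11.15, pandas 2.3.3). The spread between libraries was estimated with edgeR 4.0.16 in R 4.3.3 (filterByExpr, TMM, common dispersion) and tested on simulated data. No pair of libraries was a copy: the chi-square per gene was 7.49 to 20.7. Positions and exon overlaps come from GENCODE v29 on GRCh38, biotypes and promoters from RefSeq, by symbol (20022 matched). A count of 0 allows up to 3 reads, 0.0784 to 0.0791 CPM per library; limits cover counting error only.

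Members were counted in 35 lists (878 genes, 752 analysed). The naming rule took the 5 markers, the 20 highest genes by FPKM and by CPM, up to 6 highest and 6 lowest members of each list, all members of the thyroid, papillary cancer and other cell type lists, the 10 most and 5 least variable genes and 4 genes beside 1 FPKM; some of these are not reported here. Members and lists were chosen with earlier results of these data known, and mitochondrial symbols were set after the symbols of the table were seen. Other named members, ratios and pairs of ligands and receptors were chosen after their values were seen. Alternatives covered TMM scaling, TPM, medians, thresholds, filters and leaving out each library.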

Additional observations from a re-analysis of the deposited data

How the results depend on the processing

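The levels of PAX8, FN1, RET, DPP4 and C3 moved by less than 1 SD with TMM-scaled library sizes. Without a replicate each they ran from 129.9 to 135, 2262 to 2361, 7.45 to 7.63, 75.4 to 78.4 and 196 to 199 FPKM; with 3 libraries a mean without 1 of them, or a median, always lies within 1 SD of the mean. As TPM they were 351, 6109.9, 19.96, 202 and 524. Genes with 0 reads numbered 1174, 3176 had at most 3 reads, and without a replicate each 1862 to 1902 had 0. The 20 most abundant genes took 9.12% without mitochondrial genes. The biological coefficient of variation was 8.89% with no filter, 8.51% with median-ratio size factors (from 8.51%), and 6.53% to 9.42% without each replicate, lowest without replicate 2. Expressed genes numbered 11693 at 0.5 FPKM, 10989 by the mean, 13708 by at least 10 reads, 10692 with TMM, and 10771 to 10785 without a replicate. The list members expressed, 539, became 570 and 627 at 0.5 FPKM and by reads and 539 to 541 without a replicate, settings added after the data were seen. The levels of the 20 highest genes, also added then, moved by less than 1 SD with TMM; ATP8, at 1926 FPKM, was at 1401 without replicate 2. No paired analysis was possible because no groups were compared and no result came from a test. Depth limits the genes near 0, and 3 libraries limit every SD.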

Other observations

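Genes of cholesterol and fatty acid synthesis were expressed without exception in the list, 26 of 26, with a median of 36.2 FPKM. SCD, the desaturase that makes oleate, was the highest at 239, 263 and 259 FPKM. FDPS, of the mevalonate pathway, was at 163, 134 and 156 FPKM, lowest in replicate 2, and ACLY, which makes cytosolic acetyl-CoA, at 143 ± 4.78 FPKM. SQLE, squalene epoxidase, was at 104 ± 0.838 FPKM. The lowest member was FADS2 at 5.06 ± 0.257 FPKM.

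Among 13 analysed oncofetal and cancer-testis genes, 6 were expressed, against 66.8% of the protein-coding genes of the table, and 6 were below 0.1. The chromatin proteins HMGA1 and HMGA2 were at 379.7, 435 and 386 FPKM and 34.9, 40.4 and 35.9 FPKM, with a ratio of 10.8 ± 0.0627 that varied little. IGF2BP2 and IGF2BP3, fetal RNA-binding proteins, were at 17.9 ± 1.06 and 15.2 ± 1.45 FPKM, whereas IGF2BP1 had 2 reads. The cancer-testis genes MAGEA3 and MAGEA4 had 1 read each, and PRAME was at 0.316 ± 0.0395 FPKM. Of 14 telomerase and telomere genes 13 were expressed, against the same 66.8%, among them DKC1, dyskerin, at 51.7 ± 4.7 FPKM. TERT, the catalytic subunit, had 57, 36 and 77 reads, or 0.368 ± 0.133 FPKM.

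The calcium-binding S100 proteins, annexins and thymosins were high as a list, with a median of 112 FPKM. Of 21 analysed, 17 were expressed, against 66.8% of the protein-coding genes of the table. S100A11 was at 1418, 1430.2 and 1288 FPKM and S100A6 at 913, 534 and 787 FPKM, which was lowest in replicate 2. TMSB10 stood 3.85 ± 0.527 times above TMSB4X. S100P had 0 reads and TMSB15A had 2.

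Some transcripts stay in the nucleus, and replication histone transcripts lack a poly(A) tail. NEAT1 and MALAT1, nuclear long noncoding RNAs, were at 24.6, 24 and 23.7 FPKM and 21.9, 23.1 and 21.9 FPKM, and GAS5, a snoRNA host gene, at 217, 158 and 199.7 FPKM, lowest in replicate 2. The replication histone gene H4C3 had 1 read and H1-4 was at 0.0998 ± 0.0878 FPKM, while H2BC12 was at 35.4 ± 3.81 FPKM.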
